A study of Mus musculus with 70 samples.

Results

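The messenger RNA of 10 heat shock proteins and chaperones was followed in 4 leukocyte types sorted from the blood of mice after chronic social defeat stress (CSDS). The genes were Hspa1a, Hspa1b, Hspa5, Hspa8, Hsp90aa1, Hsp90ab1, Hsph1, Dnajb1, Hspd1 and Hspe1. They were picked by name, as main members of their families in the cytosol, the endoplasmic reticulum (ER) and mitochondria. They are 10 of the 52636 genes in the count table, of which 38865 had at least 1 read.

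All mice were young adult male C57BL/6J mice without any transgene. CON mice were unstressed and pair-housed, whereas defeated mice were exposed repeatedly to an aggressive CD-1 male and then split by a social interaction test into susceptible (SUS) mice, which avoided a CD-1 mouse, and resilient (RES) mice, which did not. Trunk blood was sorted on surface proteins into T cells, B cells and 2 monocyte types, Ly6C-low and Ly6C-high. Each cell type had 6 libraries per group, except for 4 CON libraries of Ly6C-low monocytes and 5 RES libraries each of B and T cells that were used. The sample labels name no mouse, libraries of different cell types may come from the same mice, and tests between cell types treat them as independent. The p-values measure the spread between libraries, which may in part be technical.

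Of 70 libraries, 68 were used. The library labelled RES B cells, replicate 6, held Cd79a, a part of the B cell receptor, at 4.91 CPM (the gene's count scaled to the library total) and Cd3e, a part of the T cell receptor, at 352 CPM. Conversely, the library labelled RES T cells, replicate 6, held Cd79a at 1079 CPM and Cd3e at 0.109 CPM. Both were left out everywhere. The labels call the source brain although the study describes sorted blood cells, and in the 68 libraries the summed markers followed the labelled cell type. T cell markers, for instance, ranged from 1720 to 2638 CPM in T cells and from 0.271 to 114 CPM in all other libraries. Markers of natural killer cells summed to 272 to 1435 CPM in Ly6C-low monocytes, against 0.181 to 39.7 CPM in Ly6C-high monocytes. The libraries held 19769835 to 67038231 counts, with a median of 37105580, and the 10 genes took 0.163% to 0.565% of them. All levels below are CPM scaled by TMM, a factor per library that evens out composition, and errors are SDs over libraries unless named otherwise. Where 3 values are given for a group, they are its lowest, median and highest library.

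Chaperones bind unfolded stretches of other proteins and help them fold, assemble or be degraded. In the cytosol, HSP70 proteins bind a client with the help of J proteins, which deliver it, and of exchange factors such as HSP110, which release it, and HSP90 proteins finish the folding of kinases and steroid hormone receptors. When proteins unfold, heat shock factor 1 binds heat shock elements, inverted repeats of GAA, in the promoters of inducible members. The ER has its own HSP70, which is raised by the unfolded protein response, and mitochondria fold imported proteins in a barrel of HSP60 closed by an HSP10 lid.

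Some of the members carry such letters close to the start site. A short stretch of each was read from the RefSeq promoter windows of build GRCm38.p6, which hold 7 of the 10 genes. They are shown because they separate the members that carry a heat shock element from the ER member, which carries another element. Capitals mark the element found. They are the repeat pair GAANNTTC or TTCNNGAA in the first 4 stretches, in Hspe1 as several overlapping pairs, and CCAAT, 9 bases and CCACG, the ER stress element, in Hspa5.

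Hspa1a: cgaaactgctgGAAGATTCctggccccaag
Hspa1b: cgaaactgctgGAAGATTCctggccccaag
Hsph1: tgggtagaatctTTCTCGAAggctcgagaa
Hspe1: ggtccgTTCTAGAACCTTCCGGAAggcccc
Hspa5: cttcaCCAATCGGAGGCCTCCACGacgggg

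The stretches of Hspa1a, at chr17:34972242-34972271, and of Hspa1b, at chr17:34959324-34959353, both on the minus strand, lie 115 to 86 bases before the start site. That of Hsph1, at chr5:149636352-149636381 on the minus strand, lies 45 to 16 bases before it. The stretch of Hspe1, at chr1:55088053-55088082 on the plus strand, lies 95 to 66 bases before the start, and that of Hspa5, at chr2:34772020-34772049 on the plus strand, 70 to 41 bases before it. Searched on both strands in the 250 bases before the start, a repeat pair was held by 12.8% of 32851 RefSeq windows and the ER stress element by 0.113%. A run of 3 repeats (GAANNTTCNNGAA or TTCNNGAANNTTC), which contains overlapping pairs, was held by 153 of the windows. Hspe1 held 2 such runs, and so did the second of 2 windows of Hspd1, since Hspd1 and Hspe1 are transcribed away from each other out of the same region. The windows of Hspa1a, Hspa1b and Hsph1 each held 1 pair, the first window of Hspd1 and both windows of Dnajb1 held none, and Hspa5 held 1 ER stress element. Hspa1a and Hspa1b had the same letter at 247 of 250 positions before the start. No binding was measured, and a match of letters says nothing of use in these cells.

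The genes lie on 7 chromosomes of GRCm38. Hspa1a (ENSMUSG00000091971, chr17:34969190-34972156) and Hspa1b (ENSMUSG00000090877, chr17:34956436-34959238) are neighbours, and Hsp90ab1 (ENSMUSG00000023944, chr17:45567775-45573271) is on the same chromosome. Hspd1 (ENSMUSG00000025980, chr1:55077835-55088243) and Hspe1 (ENSMUSG00000073676, chr1:55088132-55091307) share 112 exon bases on opposite strands. Hspa5 (ENSMUSG00000026864) spans chr2:34771970-34777547, Hspa8 (ENSMUSG00000015656) chr9:40800984-40810087 and Hsp90aa1 (ENSMUSG00000021270) chr12:110690605-110702728. Hsph1 (ENSMUSG00000029657) spans chr5:149614287-149636376 and Dnajb1 (ENSMUSG00000005483) chr8:83608193-83612653. All 10 are protein-coding, and counts were taken over their exons.

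Near-identical copies limit 6 of the genes. Of all 150-base stretches of Hspa1b transcripts, 40.5% also occur in Hspa1a, and 38.1% of those of Hspa1a occur in Hspa1b, so the split between the pair is uncertain. Stretches shared with any other gene made up 28.5% in Hsp90aa1, mostly with Gm12346, 23% in Hspa8, mostly with Gm26825, 16.1% in Hspd1, with Hspd1-ps3, and 6.64% in Hspe1. Hspa1a also overlaps Gm20481 on the opposite strand by 564 exon bases, and how the strand was counted is not given in the sources used here. Hspa5, Hsp90ab1, Hsph1 and Dnajb1 shared no such stretch.

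**Figure D1:**
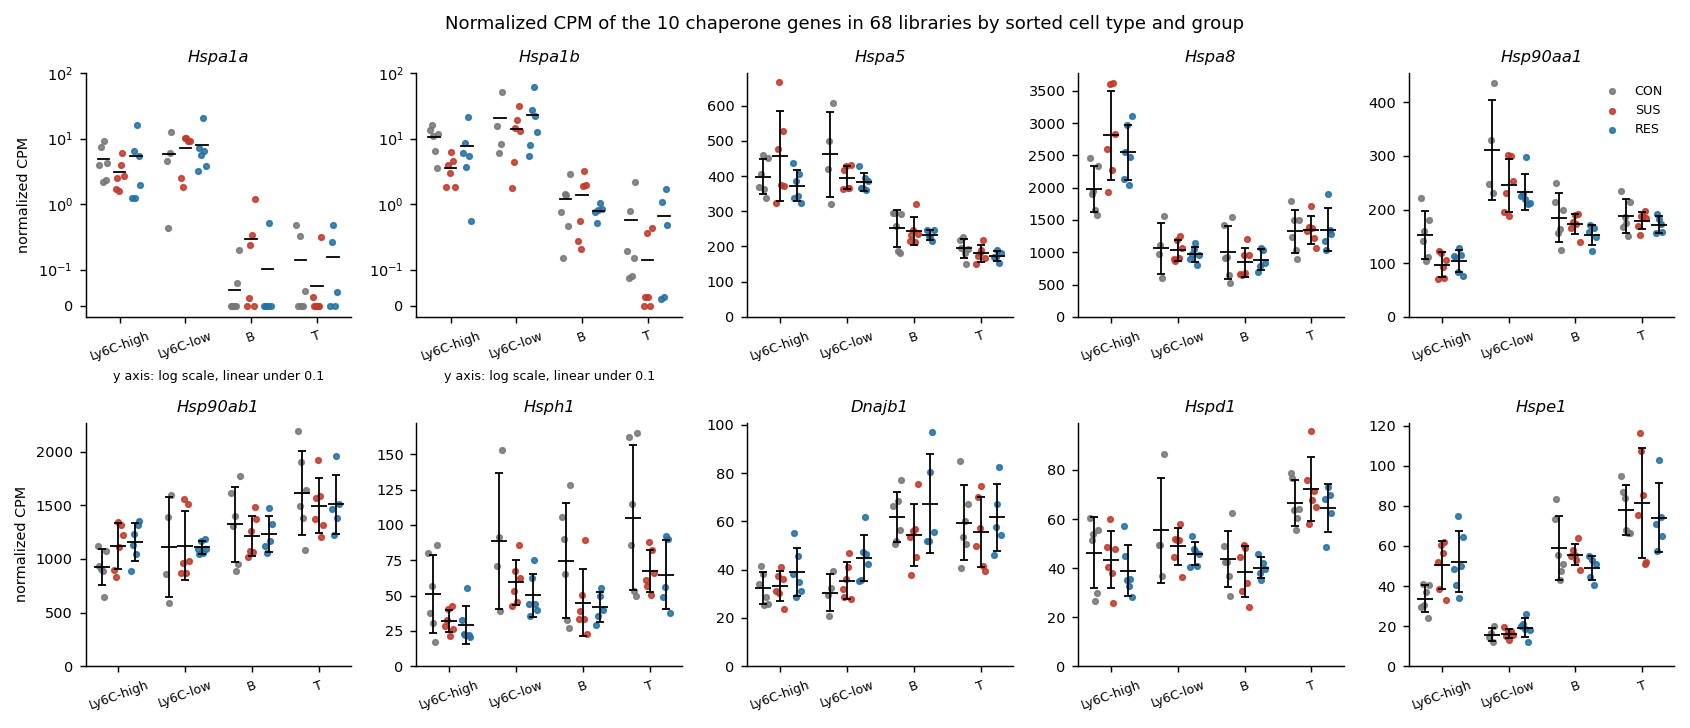
Levels of the 10 genes in TMM-normalized CPM (y axis, log scale for Hspa1a and Hspa1b, linear under 0.1 CPM) by sorted cell type (x axis), with 1 point per library in CON (grey), SUS (red) and RES (blue); bars are the mean and SD, or the mean alone on the log scale. Hspa1a and Hspa1b sat far lower in B and T cells than in both monocyte types, and Hspe1 was lowest in Ly6C-low monocytes, between 11.9 and 26.2 CPM.

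Without stress, the inducible HSP70 genes separated monocytes from lymphocytes, and the mitochondrial lid gene Hspe1 was higher in lymphocytes. Levels in CON libraries were compared over all 6 pairs of cell types with edgeR's quasi-likelihood test, using Benjamini-Hochberg adjustment across 21032 genes. Calls required both an adjusted p under 0.05 and a log2 fold change beyond 1 in either direction. Of the 10 members, 3 were called between Ly6C-high monocytes and B cells, where 33.1% of all genes were, and 4 between Ly6C-high monocytes and T cells, where 32.8% were. For Ly6C-low monocytes there were 3 calls vs. B cells (30.3% of all genes) and 4 vs. T cells (28.5% of all genes). Between the monocyte types 2 of 10 were called, against 11.2% of all genes, and between B and T cells 0 of 10, against 20.2%. With 10 members, these shares are near those of all genes in the first 5 pairs. Between B and T cells 3 members had an unadjusted p under 0.05, and DESeq2 also called 0. The share of all genes with such a p is not given here, so these 3 are not set against a background.

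Hspa1a and Hspa1b encode the stress-inducible cytosolic HSP70, and their RNA was far higher in monocytes. Hspa1a in CON libraries was at 2.15, 4.14 and 9.25 CPM in Ly6C-high monocytes, and its 4 libraries of Ly6C-low monocytes were at 0.43, 4.56, 5.98 and 12.5 CPM. The same gene reached at most 0.2 CPM in CON B cells and 0.485 CPM in CON T cells, which is 0 to 6 and 0 to 18 reads per library. Every Ly6C-high library was above every lymphocyte library, while the lowest Ly6C-low library lay within the range of T cells. Hspa1b was at 3.58, 11.4 and 16 CPM in Ly6C-high monocytes and at 6.13, 8.15, 15.8 and 51.5 CPM in Ly6C-low monocytes. It was at 0.152, 1.08 and 2.84 CPM in B cells and 0.0763, 0.17 and 2.14 CPM in T cells. No lymphocyte library reached the lowest monocyte library.

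The fitted log2 difference of Hspa1a was 6.80 ± 1.25 (SE) between Ly6C-high monocytes and B cells (adjusted p = 5.94e-05, edgeR) and 5.09 ± 1.12 between Ly6C-high monocytes and T cells (adjusted p = 0.000472, edgeR). With so few reads in lymphocytes these sizes depend on the prior count of the fit. For Hspa1b they were 3.17 ± 0.795 (adjusted p = 0.00234, edgeR) and 4.27 ± 0.847 (adjusted p = 0.000249, edgeR). Neither gene was called between the monocyte types, with log2 differences of -0.25 ± 1.02 and -0.97 ± 0.797. Reads assigned to the pair differed in the same way, with 143 to 623 Hspa1b reads per CON library of Ly6C-high monocytes and 4 to 85 in B cells.

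Hspa8, the constitutive cytosolic HSP70, was highest in Ly6C-high monocytes. Its CON levels there were 1579, 1921 and 2464 CPM, and the 4 Ly6C-low libraries were at 601, 965, 1118 and 1561 CPM. B cells were at 530, 917 and 1549 CPM and T cells at 897, 1362 and 1798 CPM. All Ly6C-high libraries were above all Ly6C-low and B cell libraries, whereas T cells overlapped. The log2 difference was 1.02 ± 0.264 against B cells (adjusted p = 0.00328, edgeR), 0.89 ± 0.3 against Ly6C-low monocytes (adjusted p = 0.043, edgeR) and 0.58 ± 0.262 against T cells (adjusted p = 0.0808, edgeR). The first ranged from 0.88 to 1.16 with each library left out, thus moving across the fold threshold, and the second from 0.71 to 1.13, with an adjusted p under 0.05 in 14 of 22 such fits.

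Dnajb1, a heat-inducible J protein that delivers clients to HSP70, ran the other way. It was at 25.5, 31.4 and 41.4 CPM in CON Ly6C-high monocytes and at 20.7, 29.5, 32.2 and 39.4 CPM in Ly6C-low monocytes. B cells were at 50.5, 61.5 and 77.1 CPM and T cells at 40.7, 56.9 and 85.1 CPM. Monocyte levels were thus lower, with fold changes of 0.534 and 0.542 for Ly6C-high and 0.507 and 0.515 for Ly6C-low monocytes against B and T cells. All 4 adjusted p-values were under 0.001 (edgeR) with log2 differences between -0.88 and -0.98, so Dnajb1 narrowly missed the fold threshold. With each library left out, the values against B cells ranged from -1.01 to -0.84 for Ly6C-high and from -1.12 to -0.84 for Ly6C-low monocytes. Against T cells they ranged from -0.97 to -0.75 and from -1.10 to -0.82. All but Ly6C-high monocytes against T cells thus crossed the fold threshold in some fits. Hsph1, the HSP110 exchange factor, varied more in CON groups, relative to its mean, than any member but Hspa1a and Hspa1b. Its CON range was 16.8 to 85.8 CPM in Ly6C-high monocytes, 39.2 to 153 CPM in Ly6C-low monocytes, 26.7 to 128 CPM in B cells and 49.4 to 165 CPM in T cells. None of the 6 pairs of cell types was called for Hsph1 with libraries treated as independent, and the ranges overlapped in each. Its CON deviations ran much alike by library order in Ly6C-high monocytes, B cells and T cells. A paired fit may therefore give other errors and calls, and none was possible because the labels name no mouse.

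The 2 cytosolic HSP90 genes differed from each other. Hsp90aa1, the inducible form, was at 104, 150 and 222 CPM in CON Ly6C-high monocytes and at 231, 248, 330 and 436 CPM in Ly6C-low monocytes, without overlap. B cells, at 125, 181 and 250 CPM, and T cells, at 151, 180 and 235 CPM, overlapped with both. The log2 difference of Ly6C-high from Ly6C-low monocytes was -1.03 ± 0.213 (adjusted p = 0.00105, edgeR). This difference ranged from -1.18 to -0.83 with each library left out, and fell short of the fold threshold without Ly6C-high replicates 4 or 5 or Ly6C-low replicates 2 or 4. Ly6C-low monocytes also exceeded B cells by 0.80 ± 0.213 and T cells by 0.74 ± 0.213 (adjusted p = 0.00408 and 0.00792, edgeR), with overlapping ranges. The means of the constitutive Hsp90ab1 ran from 928 ± 169 CPM in Ly6C-high monocytes (n = 6) over 1111 ± 463 CPM in Ly6C-low monocytes (n = 4) and 1323 ± 352 CPM in B cells (n = 6) to 1618 ± 392 CPM in T cells (n = 6). Of these, only the ends of the order differed by adjusted p (log2 difference -0.80 ± 0.235, adjusted p = 0.00822, edgeR), and their ranges overlapped.

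Hspa5, the HSP70 of the ER also known as BiP, was higher in both monocyte types. Its CON levels were 339, 388 and 460 CPM in Ly6C-high monocytes, and 322, 421, 500 and 607 CPM in Ly6C-low monocytes. B cells were at 183, 274 and 295 CPM and T cells at 151, 195 and 227 CPM. No lymphocyte library reached the lowest monocyte library. The log2 differences against T cells were 1.03 ± 0.145 for Ly6C-high and 1.26 ± 0.159 for Ly6C-low monocytes (adjusted p = 1.25e-06 and 2.81e-07, edgeR). Against B cells they were 0.70 ± 0.145 and 0.92 ± 0.159 (adjusted p = 0.000231 and 2.84e-05, edgeR), under the fold threshold. The Ly6C-high value against T cells ranged from 0.97 to 1.08 with each library left out.

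The mitochondrial pair moved together only in part across cell types. Both genes had their highest CON mean in T cells, but only Hspe1 was lower in Ly6C-low monocytes than in every other type. Hspe1, the HSP10 lid, was at 23.9, 33.8 and 41 CPM in CON Ly6C-high monocytes and at 12, 14.6, 16.6 and 20 CPM in Ly6C-low monocytes. B cells were at 43, 53.4 and 83.5 CPM and T cells at 66.2, 76 and 94.9 CPM. Only B and T cells overlapped. The log2 difference of Ly6C-low monocytes was -2.29 ± 0.206 from T cells and -1.86 ± 0.202 from B cells (adjusted p = 5.3e-10 and 1.93e-08, edgeR). Ly6C-high monocytes exceeded Ly6C-low monocytes by 1.09 ± 0.196 (adjusted p = 0.000153, edgeR), a value of 0.99 without Ly6C-low replicate 3. Their log2 difference from T cells was -1.21 ± 0.17 (adjusted p = 1.16e-06, edgeR). That of B cells from T cells was -0.44 ± 0.168 (adjusted p = 0.048, edgeR). Its adjusted p was under 0.05 in 5 of 22 fits with 1 library left out. Hspd1, the HSP60 barrel, had CON means of 46.3 ± 14.3 CPM in Ly6C-high monocytes, 55.5 ± 21.4 CPM in Ly6C-low monocytes, 43.6 ± 11.4 CPM in B cells, and 66.6 ± 9.31 CPM in T cells. B cells and Ly6C-high monocytes were below T cells, with log2 differences of -0.65 ± 0.214 and -0.53 ± 0.213 (adjusted p = 0.0227 and 0.0471, edgeR). Both were under the fold threshold, and the ranges overlapped. With each library left out, the adjusted p was under 0.05 in 18 of 22 fits for B cells. For Ly6C-high monocytes it was so in 8 of 22 fits. The other pairs had an adjusted p above 0.05.

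**Figure D2:**
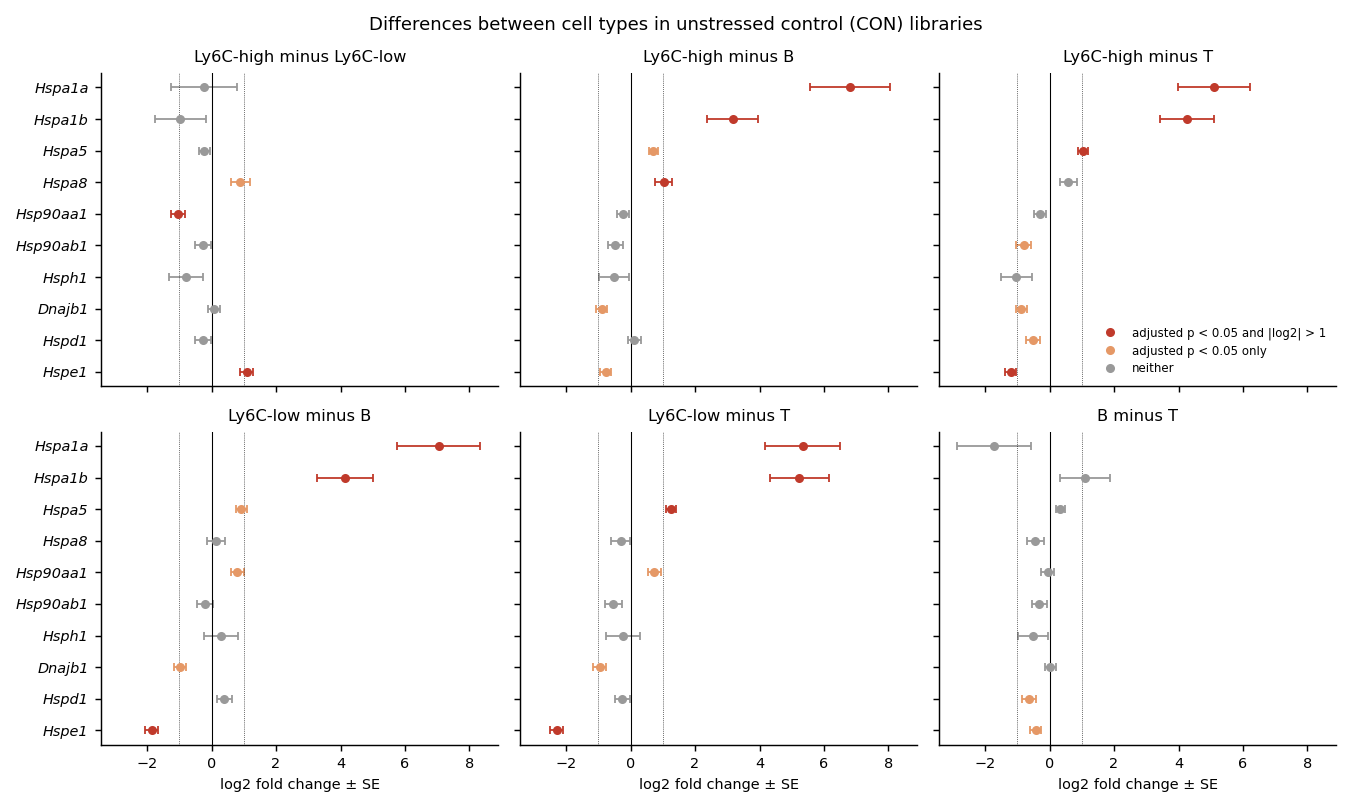
Log2 fold change with its SE (x axis) of the 10 genes (y axis) between each pair of sorted cell types in CON libraries, 1 pair per panel; red points passed adjusted p and fold thresholds, orange points adjusted p alone, and dotted lines mark a log2 fold change of 1. Hspa1a and Hspa1b lie at 3.17 to 7.05 in the 4 panels of monocytes against lymphocytes, and no point of the B minus T panel passed both thresholds.

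Compared per kilobase of exon, Hsp90ab1 and Hspa8 stood above the rest in all CON groups. In Ly6C-high monocytes Hspa8 was at 460 ± 82.2 CPM per kilobase and Hsp90ab1 at 309.5 ± 56.3 CPM per kilobase, while in T cells the order was turned, with 308 ± 77.5 for Hspa8 and 539 ± 131 for Hsp90ab1. Hspa5 followed with 94.1 ± 11.7 CPM per kilobase in Ly6C-high monocytes and Hsp90aa1 with 38.9 ± 11.3. Hspa1a, at 1.66 ± 0.968 CPM per kilobase there, was the lowest of the 10. The order of Hspa8 and Hsp90ab1 in each cell type is a description and was not tested.

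Other genes of the chaperone network were counted beside all genes. Of 21032 genes, 3847 were higher and 3122 lower in Ly6C-high monocytes than in B cells (33.1%), and 3521 were higher and 3374 lower than in T cells (32.8%). Against B cells 7 of 10 lists had a smaller share called than all genes, and the HSP70 family, ER folding and heat shock factors had a larger one. Genes were taken from lists by family (at most the 2 largest differences each way per list). Among 14 exchange factors and partners of HSP70, 1 was higher and 1 lower in Ly6C-high monocytes than in B cells. The higher one was Bag3, an exchange factor that sends clients to autophagy, at 56.1 CPM against 0.812 CPM in B cells and 7.57 CPM in T cells (log2 difference 6.15 and 2.90). Among 16 HSP90 genes and co-chaperones, of which 15 were tested, 0 were higher and 3 lower in Ly6C-high monocytes than in B cells, and the same counts held against T cells. They included Unc45a, a myosin chaperone (21.6 against 65.6 CPM in B cells), and Fkbp4, a co-chaperone of steroid receptors (42.5 against 119 CPM). All genes had a median log2 difference of 0.0213 in the first and -0.05 in the second pair, and the HSP90 list -0.35 and -0.46.

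J proteins went both ways. Of 23, 4 were higher and 2 lower in Ly6C-high monocytes than in B cells, and 1 was higher and 4 lower than in T cells. Dnajb14, a J protein of the ER membrane, was at 185 CPM in Ly6C-high monocytes, 70.8 CPM in Ly6C-low monocytes and 11.3 and 12.9 CPM in B and T cells. Dnajc9, a histone chaperone, was at 11.6 CPM in Ly6C-high monocytes, 111 CPM in B cells and 71.4 CPM in T cells. Among 28 genes of ER folding and the unfolded protein response, 9 were higher and 3 lower in Ly6C-high monocytes than in B cells, and 8 were higher and 1 lower than in T cells. The list's median log2 difference was 0.52 and 0.61, against 0.0213 and -0.05 over all genes, of which 33.1% and 32.8% were called. Its sensors Ern1 (267 against 16.2 CPM in B cells) and Atf6 (223 against 15 CPM in T cells) were higher in monocytes, whereas Syvn1, a ubiquitin ligase of ER disposal, was at 47.8 CPM in Ly6C-high monocytes and 199 CPM in B cells.

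In mitochondria, 0 of 14 listed chaperones and proteases were higher and 2 lower in Ly6C-high monocytes than in B cells, a smaller share than the 33.1% of all genes. The protease subunit Clpp, at 5.71 against 21.7 CPM, was one of them. Htra2, a protease of the space between the membranes, was at 49.6 CPM in Ly6C-low monocytes and 20 CPM in Ly6C-high monocytes. Of 8 subunits of the cytosolic chaperonin TRiC, which folds actin and tubulin, 1 passed, Cct3, at 42.8 CPM in Ly6C-high monocytes, 90.3 CPM in B cells and 104 CPM in T cells. Hsf2, a heat shock factor, was at 28.2 CPM in Ly6C-high monocytes, 6.98 CPM in B cells and 12 CPM in T cells. Among heat shock response genes outside the chaperones, Hmox1, which breaks down heme, was at 63.4 CPM against 0.309 and 1.06 CPM in B and T cells. Only 4 of 10 small heat shock proteins were expressed enough to be tested.

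Immediate early genes, which rise when cells are handled, moved along with Hspa1a and Hspa1b across cell types. The 12 genes summed to 1819 to 2245 CPM in CON Ly6C-high monocytes, 2129 to 2666 CPM in Ly6C-low monocytes, 964 to 1143 CPM in B cells and 490 to 535 CPM in T cells. Atf3, a stress-induced transcription factor, was at 69 CPM in Ly6C-high monocytes and 0.0574 CPM in B cells. None of the 12 was at 0 in all libraries of a group, and their part in the monocyte levels of Hspa1a and Hspa1b was not tested.

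After CSDS, no member passed both thresholds in any of 12 comparisons of SUS, RES and CON mice within a cell type. In Ly6C-high monocytes 0 of 10 were called in SUS vs. CON mice, where 3.45% of 16955 genes were, 0 of 10 in RES vs. CON mice, where 0.997% were, and 0 of 10 in SUS vs. RES mice, where 0% were. In Ly6C-low monocytes the shares of all genes were 0.0871%, 0.0154% and 0%. B cells, where Hspa1a was too low to be tested and 0 of 9 members were called, had 0.00568%, 0% and 0%, and T cells 0.0265%, 0% and 0%. An unadjusted p under 0.05 was seen for 5 members each in SUS and RES vs. CON mice in Ly6C-high monocytes, for 4 in RES vs. CON mice in Ly6C-low monocytes, and for at most 1 elsewhere. The shares of all genes at that unadjusted threshold are not given here, and no excess is read from these counts. By the stricter adjusted p alone, 12.6% of all genes passed in SUS vs. CON and 4.97% in RES vs. CON mice in Ly6C-high monocytes. DESeq2 called 1 member, Hspa1b in Ly6C-high monocytes of SUS mice. Comparisons with CON mice share the CON libraries, and in bulk samples fewer cells of a subset and less RNA per cell cannot be told apart.

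Hsp90aa1 passed the adjusted p alone in SUS mice, which 12.6% of all genes did in SUS vs. CON and 4.97% in RES vs. CON mice in Ly6C-high monocytes. Its level was 104, 150 and 222 CPM in CON libraries, 70.6, 99.4 and 123 CPM in SUS libraries and 75.2, 111 and 128 CPM in RES libraries. The upper CON libraries stood above all stressed ones, and the lower ones overlapped with them. Hsp90aa1 fell by 0.69 on the log2 scale (SE 0.187, adjusted p = 0.0174, edgeR) in SUS mice, and the value in RES mice was -0.57 ± 0.186 (adjusted p = 0.074, edgeR). The SUS adjusted p was 0.0594 without CON replicate 1 and 0.0576 without CON replicate 6. In Ly6C-low monocytes the values were -0.35 ± 0.178 and -0.45 ± 0.178, in B cells -0.09 ± 0.137 and -0.27 ± 0.144, and in T cells -0.08 ± 0.1 and -0.13 ± 0.105, with adjusted p-values from 0.416 to 1.

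Hspa1b in Ly6C-high monocytes was at 3.58, 11.4 and 16 CPM in CON libraries, 1.85, 3.45 and 6.27 CPM in SUS libraries and 0.552, 5.75 and 21.5 CPM in RES libraries. Only the lowest CON library lay within the SUS range, and RES libraries spanned both. The log2 difference of SUS mice was -1.58 ± 0.535 (adjusted p = 0.0531, edgeR), and that of RES mice -0.46 ± 0.523 (adjusted p = 0.676, edgeR). The SUS value passed both thresholds under DESeq2 (log2 -1.65, adjusted p = 0.0113), and in edgeR when only the 2 groups were fitted (adjusted p = 0.0143) or without SUS replicate 4, CON replicate 5, RES replicate 4 or RES replicate 6 (adjusted p = 0.0189 to 0.0462). SUS and RES mice differed by -1.12 ± 0.53 (adjusted p = 0.999, edgeR). Hspa1a, its near copy, was at 2.15, 4.14 and 9.25 CPM in CON libraries, 1.57, 2.59 and 5.97 CPM in SUS libraries and 1.25, 3.72 and 16 CPM in RES libraries, with a log2 difference of -0.71 ± 0.572 in SUS mice (adjusted p = 0.468, edgeR).

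Hspa8 in Ly6C-high monocytes was at 1579, 1921 and 2464 CPM in CON libraries, 1927, 2714 and 3618 CPM in SUS libraries and 2048, 2509 and 3112 CPM in RES libraries. Its log2 difference was 0.47 ± 0.158 in SUS mice (adjusted p = 0.0501, edgeR) and 0.35 ± 0.158 in RES mice (adjusted p = 0.195, edgeR), and in the other cell types all values lay between -0.23 and 0.02. Hspe1 was at 23.9, 33.8 and 41 CPM in CON libraries, 33.1, 54.3 and 61.7 CPM in SUS libraries and 34, 49.3 and 75.1 CPM in RES libraries. The stressed libraries reached higher, and the ranges overlapped. The log2 differences of Hspe1 were 0.54 ± 0.197 in SUS (adjusted p = 0.0695, edgeR) and 0.61 ± 0.197 in RES mice (adjusted p = 0.0685, edgeR). With library size alone as the scale, the values in SUS mice were 0.24 for Hspa8 and 0.31 for Hspe1.

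Hsph1 had a lower mean in SUS and RES than in CON mice in all 4 cell types, and none of the 8 comparisons passed the test. The 8 are not independent, since SUS and RES values share the CON libraries. CON libraries of different cell types may also come from the same mice. In Ly6C-high monocytes it was at 16.8, 47.1 and 85.8 CPM in CON libraries, 21.6, 30.6 and 42.3 CPM in SUS libraries and 21, 22.4 and 55.4 CPM in RES libraries. The 4 CON libraries of Ly6C-low monocytes were at 39.2, 70.8, 91.1 and 153 CPM, against 42.6, 58 and 85.6 CPM in SUS libraries and 35.4, 44 and 74.9 CPM in RES libraries. CON libraries of B cells were at 26.7, 77.6 and 128 CPM and those of T cells at 49.4, 100.3 and 165 CPM. In each cell type 2 or 3 CON libraries lay above all stressed ones, and the other CON libraries lay within their range or under it. The SD over CON libraries was 27.8 CPM in Ly6C-high and 48.2 CPM in Ly6C-low monocytes, 40.6 CPM in B cells and 51.1 CPM in T cells. In the same order it was 8.06, 16, 23.7 and 14.8 CPM over SUS libraries and 13.5, 15.2, 10.8 and 24.7 CPM over RES libraries. The log2 differences lay between -0.58 and -0.84, with adjusted p-values from 0.13 to 1 (edgeR). In Ly6C-high monocytes of RES mice the value was -0.81 ± 0.314 (adjusted p = 0.13, edgeR), and it passed both thresholds without RES replicate 4 (-1.09, adjusted p = 0.0352) or CON replicate 5 (-1.02, adjusted p = 0.0468). Without CON replicate 6 it was -0.58 (adjusted p = 0.328), and the SUS value went from -0.71 to -0.46 (adjusted p = 0.404). In Ly6C-low monocytes, leaving out CON replicate 4 moved the SUS value from -0.58 to -0.19 and the RES value from -0.84 to -0.45.

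The other 4 members gave small values. Hspa5 in Ly6C-high monocytes was at 398 ± 49.6 CPM in CON libraries, 457 ± 127 CPM in SUS libraries and 372 ± 44 CPM in RES libraries (n = 6 each), and Hsp90ab1 at 928 ± 169, 1121 ± 214 and 1160 ± 176 CPM. Hspd1, at 46.3 ± 14.3, 43.5 ± 11.5 and 39 ± 10.5 CPM, and Dnajb1, at 32.3 ± 6.66, 33.3 ± 6.17 and 39 ± 9.94 CPM, had differences of means under 1 SD of the RES libraries. The largest of their values elsewhere was that of Dnajb1 in Ly6C-low monocytes of RES mice, at 44.9 ± 9.73 CPM (n = 6) against 30.5 ± 7.72 CPM in CON mice (n = 4), a log2 difference of 0.54 ± 0.182 (adjusted p = 0.29, edgeR).

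**Figure D3:**
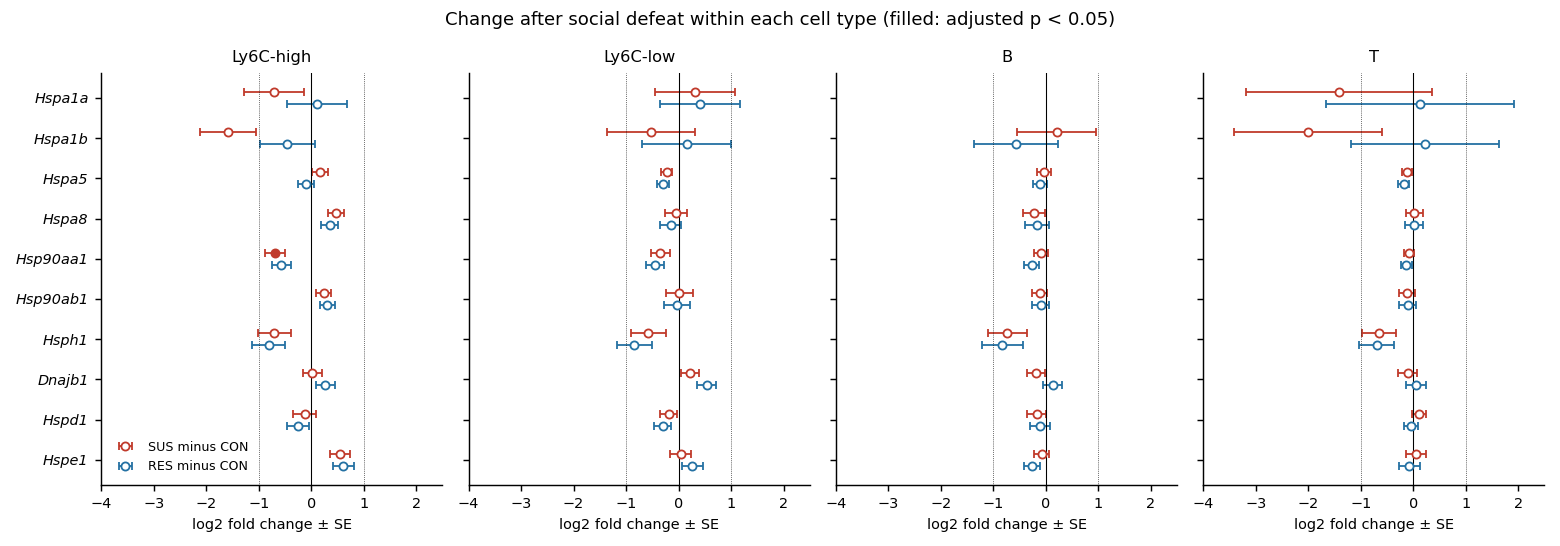
Log2 fold change with its SE (x axis) of the 10 genes (y axis) in SUS (red) and RES (blue) vs. CON mice, 1 panel per sorted cell type; filled points have an adjusted p under 0.05, and dotted lines mark a log2 fold change of 1. The single filled point is Hsp90aa1 in Ly6C-high monocytes of SUS mice at -0.69, Hspa1a in B cells was not tested, and Hsph1 lies left of 0 in every panel. SUS and RES points of a panel share the CON libraries, and panels may share mice.

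Markers of red blood cells moved with stress in the same libraries. The 7 genes in Ly6C-high monocytes summed to 343 to 1216 CPM over CON libraries, 1098 to 8996 CPM over SUS libraries and 1077 to 4351 CPM over RES libraries. In SUS mice 7 of 7 were called higher, in RES mice 2 of 7, and none was at 0. The summed ranges in Ly6C-low monocytes were 295 to 1260 CPM over CON, 860 to 2699 CPM over SUS and 878 to 3921 CPM over RES libraries. With their summed level as a covariate, an alternative added after the data were seen, 1 gene in place of 585 was called in SUS vs. CON mice, and Hsp90aa1 was at -0.39 (adjusted p = 0.939, edgeR) and Hspa1b at -1.78 (adjusted p = 0.803, edgeR). Hspa8 in SUS mice went from 0.47 to 0.15 and Hspe1 from 0.54 to 0.13 (adjusted p = 0.998 for both, edgeR). Since the markers followed the groups, this covariate and the effect of stress cannot be told apart.

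Whether a change in Ly6C-high monocytes differed from that in another cell type was tested as an interaction over 24248 genes at an adjusted p under 0.05. No member passed. Among all genes the SUS vs. CON change differed for 0.363% from that in Ly6C-low monocytes, for 6.18% from that in B cells and for 3.22% from that in T cells, and the RES vs. CON change for 0.099%, 1.65% and 0.713%. Hspe1 came closest, with a RES vs. CON change 0.90 ± 0.268 higher on the log2 scale in Ly6C-high monocytes than in B cells (adjusted p = 0.0573, edgeR). DESeq2 called 1 member, Hsp90aa1, with a difference in the SUS vs. CON change of -0.66 from B cells (adjusted p = 0.0435) and -0.69 from T cells (adjusted p = 0.0489), where edgeR gave -0.55 (adjusted p = 0.121) and -0.58 (adjusted p = 0.122).

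In Ly6C-high monocytes, 3.45% of 16955 genes passed both thresholds in SUS vs. CON mice. Over all chaperone and heat shock lists 2 genes did, and no excess over that share is read from this count. P4hb, a disulfide isomerase of the ER, was at 378 CPM in CON and at 779 CPM in SUS mice (log2 difference 1.02 ± 0.199, adjusted p = 0.00233, edgeR). Dnajc15, a J protein of the mitochondrial membrane, was at 13.1 and 28.3 CPM (log2 difference 1.08 ± 0.223, adjusted p = 0.00312, edgeR). SUS and CON libraries did not overlap for either gene. In RES mice, with the same CON libraries, P4hb was at 637 CPM (log2 difference 0.74 ± 0.198, adjusted p = 0.0341, edgeR), under the fold threshold. In Ly6C-low monocytes of SUS mice, Atf3 fell by 1.09 on the log2 scale (SE 0.238, adjusted p = 0.0455, edgeR), from 26.2 to 12.3 CPM.

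By adjusted p alone, 6 of 27 tested genes of ER folding and the unfolded protein response were higher and 0 lower in SUS than in CON mice, with a list median of 0.11. Markers of plasma cells, a secretory type, summed to 164 to 239 CPM in CON and 233 to 399 CPM in SUS libraries, with 2 of 6 at 0 in all CON libraries. Most of that sum was Xbp1, which both lists hold. Neutrophil markers summed to 14.6 to 359 CPM in CON and 22 to 1187 CPM in SUS libraries, and 0 of 6 tested had an adjusted p under 0.05. Their part in the ER genes was not tested. The HSP90 list had 3 higher and 2 lower of 15, with a median of 0.24, and TRiC 2 higher and 0 lower of 8, with a median of 0.33. The mitochondrial list had 1 higher and 0 lower of 14, the HSP70 family 2 higher and 0 lower of 14 and the J proteins 1 higher and 0 lower of 23. For all genes 1488 were higher and 651 lower of 16955, with a median of -0.05. These lists are described by their counts, and no test of a list was made. The following names were chosen after their values were seen. Xbp1, the transcription factor of the unfolded protein response, rose from 186 to 325 CPM and Calr, an ER chaperone of glycoproteins, from 433 to 713 CPM. Fkbp5, a co-chaperone that is induced by glucocorticoids, rose from 18.4 to 34.5 CPM, and Chordc1, an HSP90 co-chaperone that heat shock induces, fell from 47.5 to 30.4 CPM.

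**Figure D4:**
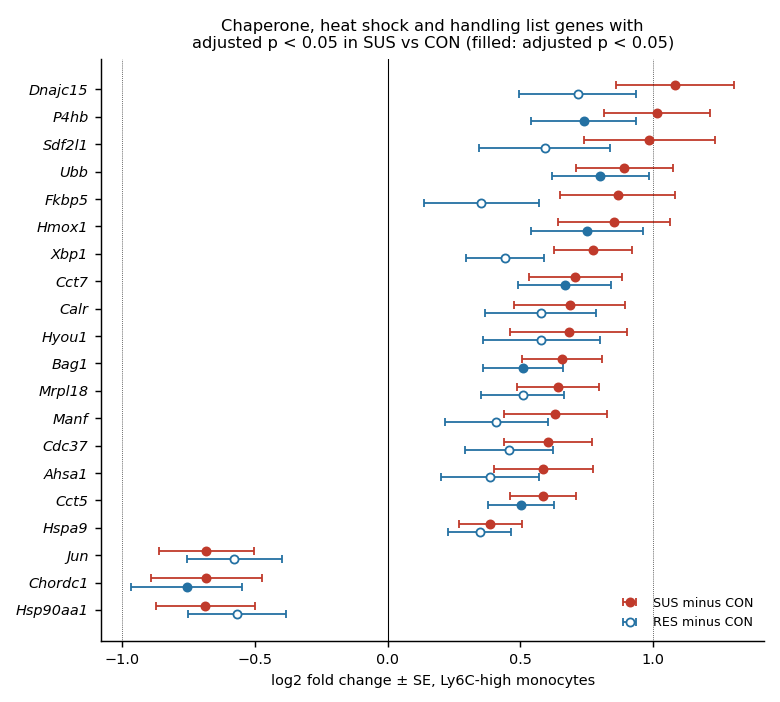
Log2 fold change with its SE (x axis) in Ly6C-high monocytes of SUS (red) and RES (blue) vs. CON mice for the 20 genes (y axis) of the chaperone, heat shock and cell handling lists with an adjusted p under 0.05 in SUS vs. CON mice; filled points have an adjusted p under 0.05. Genes were selected by the SUS value, so the SUS points lie away from 0 by choice; 17 lie above 0, and Jun, Chordc1 and Hsp90aa1 lie below.

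Within groups, some members varied together. The deviation of each of the 68 libraries from its group mean, on log2(CPM + 0.5), gave a Pearson r of 0.86 for Hspa8 and Hsp90ab1, 0.71 for Hspa8 and Hsph1 and 0.70 for Hsp90aa1 and Hsph1. Within single cell types, Hsph1 and Hsp90aa1 had an r of 0.65 in 18 libraries of Ly6C-high monocytes, 0.87 in 16 of Ly6C-low monocytes, 0.68 in 17 of B cells and 0.76 in 17 of T cells. Hspd1 and Hspe1, which share a promoter region, had an r of 0.19 over the 68 libraries and of -0.08, 0.49, 0.22 and 0.43 in the same cell types. Hspa1a and Hspa1b had an r of 0.59, which shared sequence can raise. Libraries share depth and RNA quality across genes, and these values are descriptions.

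**Figure D5:**
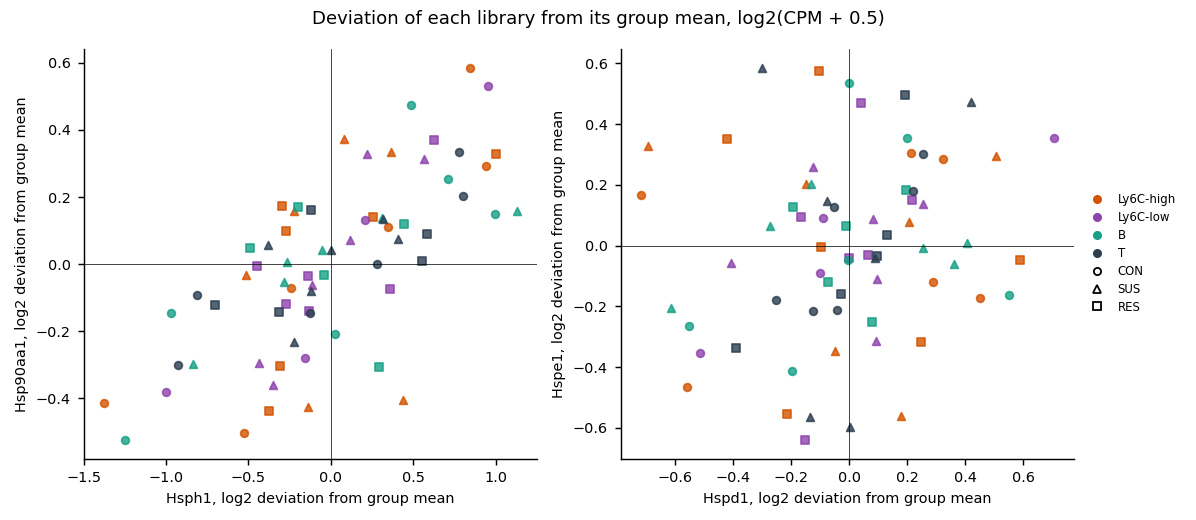
Deviation of each of 68 libraries from the mean of its group, in log2(CPM + 0.5), for Hsp90aa1 against Hsph1 (left) and Hspe1 against Hspd1 (right), with colour for the cell type and shape for CON, SUS and RES. The left cloud runs from lower left to upper right (r = 0.70), the right one has no clear slope (r = 0.19).

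The genes most like a cytosolic, an ER and a mitochondrial member by the same deviations were sought among 10383 genes with a mean of at least 5 CPM that are not members. For Hsph1 they were Stip1 (r = 0.77), an adaptor between HSP70 and HSP90, Dnaja1 (r = 0.67), a J protein, Banp (r = 0.64), St13 (r = 0.63), a cofactor of HSP70, and Gm12346 (r = 0.62), which shares sequence with Hsp90aa1. For Hspa5 they were St13 (r = 0.68), Stip1 (r = 0.67), the ER J protein Dnajb11 (r = 0.64), the ER disulfide isomerase Pdia4 (r = 0.63) and Gm8355 (r = 0.60). For Hspd1 the leading 3 were Rdx (r = 0.66), Eif4g2 (r = 0.65) and Ptbp3 (r = 0.65), none of which is a chaperone. With Spearman's rho, 10 of the 15 genes were again among the leading 5 of their member.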

How the data were processed

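RNA was measured in 70 libraries of leukocytes sorted from mouse blood into Trizol, with a stranded total RNA kit for low input. The authors mapped reads to mm10 with HISAT2, counted them per gene with HTSeq against an Ensembl annotation, and deposited raw counts without normalization. The strand option and the treatment of duplicates are not given in the sources used here. Groups were taken from the labels. Libraries 52 and 70 were left out because their markers went against their labels, and 68 remained.

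Of the identifiers, 52403 matched GENCODE M21, which gave symbols and positions. Genes were filtered with filterByExpr, scaled by TMM and tested with edgeR 4.0.16 in R 4.3.3 (glmQLFit and glmQLFTest, robust), within each cell type over 3 groups, or over the CON libraries of 4 cell types. Differences between cell types were interaction terms over 12 group means. Calls needed a log2 fold change beyond 1 in either direction and a Benjamini-Hochberg adjusted p under 0.05, interactions the latter alone. Levels are TMM-scaled CPM, with 0.5 CPM added before log2. Per-gene tests were checked on simulated counts.

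Alternatives were DESeq2 1.42.0, its size factors in edgeR, no filter or at least 10 counts in every library, only the groups compared, the adjusted p alone, leaving out mitochondrial, hemoglobin, Gm23935 and Gm26917 genes, Hspa1a and Hspa1b summed, libraries 52 and 70 kept, pseudocounts of 0.1 and 1 CPM, Spearman's rho, and each library left out. For pairs of cell types only CON libraries were left out in turn, and for interactions only the 4 CON libraries of Ly6C-low monocytes. Library size alone and a red cell marker covariate were added after seeing the data. The members and lists were chosen with earlier results of these data known. All 10 members were named, and from each list the genes past both thresholds under stress and at most the 2 largest differences each way between cell types, with a mean of at least 50 counts. Depth was 19769835 to 67038231 counts per library. No molecular identifiers were used, and duplicate reads are therefore counted as separate.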

Additional observations from a re-analysis of the deposited data

Results flagged for a closer look

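Of 120 groups of 1 member in 1 cell type and condition, 10 had a single library set apart from the others by more than Dixon's 95% limit, each on the high side. That limit presumes normal values, whereas some groups hold libraries at 0 CPM. The 10 are therefore not set against a share due to chance. RES replicate 4 accounted for 5 of them. In Ly6C-high monocytes it held Hspa1a at 16.0 CPM, with the next library at 6.48 CPM, and Hsph1 at 55.4 CPM, with the next at 32.8 CPM. In Ly6C-low monocytes RES replicate 4 held Hspa1a at 20.9 CPM, with the next at 7.12 CPM, and Hsp90aa1 at 298 CPM, with the next at 229.7 CPM. In B cells it held Hspa1a at 0.509 CPM, with all other RES libraries at 0, which by itself fixes Dixon's ratio at 1. Replicate numbers follow the order of the labels, which do not say whether these libraries came from the same mouse.

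Hspa1a was also set apart in replicate 6 of CON B cells (0.200 CPM, next 0.0624), of SUS B cells (1.20 CPM, next 0.331) and of SUS T cells (0.312 CPM, next 0.0241), each a matter of few reads. Hspa1b was at 2.14 CPM in CON T cells, replicate 6, with the next at 0.785 CPM. Hspa5 was at 319 CPM in SUS B cells, replicate 5, with the next at 246 CPM. The part of cell handling or of other cells in these levels was not tested.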

How the results depend on the processing

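Of 126 counts of called members under stress with another setting, 120 stayed at 0, as did 44 of 48 for interactions. Outside Ly6C-high monocytes the main fit called at most 0.0871% of all genes under stress, so most of the 126 counts had little room to move. For pairs of cell types 44 of 54 counts stayed within 1.5 times the main count. In SUS vs. CON mice in Ly6C-high monocytes 1 member, Hspa1b, in place of 0 was called with DESeq2, its size factors, at least 10 counts in every library, only the groups compared or library size alone, and 1, Hsp90aa1, by adjusted p alone. The SUS interactions with B and T cells gave 1 each with DESeq2 or at least 10 counts, in both Hsp90aa1. The filter of at least 10 counts removes Hspa1a and Hspa1b from pairs of cell types, leaving 1 for Ly6C-high monocytes against B cells, 2 against T cells, and 1 and 2 for Ly6C-low monocytes. By adjusted p alone the pairs gave 6, 7 and 6 for Ly6C-high against B, Ly6C-high against T and Ly6C-low against B cells, and 2 for B against T cells. More of all genes pass this looser rule as well. Their share by it is not given here, and the shares under both thresholds are no background for these counts. Library size alone gave 1 between the monocyte types (Hsp90aa1, log2 -1.25) and 5 for Ly6C-low monocytes against B cells.

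With 1 library left out, the count ranged from 0 to 1 in SUS vs. CON and in RES vs. CON mice in Ly6C-high monocytes, from 1 to 2 between monocyte types, from 3 to 5 for Ly6C-low monocytes against B cells (5 without Ly6C-low CON replicate 3) and from 0 to 1 for B against T cells (Hspa1b at 2.19 without T cell CON replicate 6). For Ly6C-high monocytes the count ranged from 2 to 4 against B cells and from 3 to 4 against T cells, and for Ly6C-low monocytes from 4 to 5 against T cells. The single calls under stress in Ly6C-high monocytes were Hspa1b in SUS and Hsph1 in RES mice, without the libraries named beside their values.

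Values near 0 turned sign. Dnajb1 in SUS mice (0.02 as reported, Ly6C-high monocytes here and below) was -0.0449 with DESeq2, -0.0448 with its size factors, -0.0657 with at least 10 counts, -0.209 with library size alone and -0.175 with the red cell covariate, and from -0.0499 to 0.0998 with 1 library left out. Hspa5 in SUS mice (0.17) was -0.0724 with library size alone and -0.0222 with the covariate. Hspd1 was 0.163 in SUS and 0.0113 in RES mice with the covariate (-0.13 and -0.25 as reported). Hspa1a in RES mice (0.11) was -0.246 when summed with Hspa1b, -0.0367 with library size alone and -0.399 with the covariate, and from -0.601 to 0.390 with 1 library left out (lowest without RES replicate 4). The causes were not tested.

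Library size alone moved the median of all genes in SUS vs. CON Ly6C-high monocytes from -0.05 to -0.26, and the calls from 387 higher of 585 to 157 higher of 603. Hsph1 there was at -0.97 (adjusted p = 0.049). Pseudocounts of 0.1 and 1 CPM moved 10 and 8 of 120 group levels by more than 1 SD. With libraries 52 and 70 kept in their labelled groups, 0 members were called in B or T cells, and Hsph1 in RES mice was at -0.73 and -0.84. No paired analysis was possible because the labels give neither a mouse nor a replicate number, and numbers given in sample order do not pair libraries. In CON mice Hsph1 was nevertheless highest in replicate 6 and lowest in replicate 5 of T cells, of B cells and of Ly6C-high monocytes, so that errors between cell types may differ from those of a paired fit. Few reads limit the values of Hspa1a and Hspa1b in lymphocytes.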
